A study of Mus musculus with 2 samples.

Results

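Within the tumour cells of 2 MC38 tumour libraries, the 15% of cells with the highest summed level of 5 long genes, Tafa1, Zfpm2, Kirrel3, Sdk1 and Galnt13, were chosen by those 5 levels and described against the remaining tumour cells and between the libraries. A tumour cell was a barcode with at least 2000 unique molecular identifiers (UMIs, each standing for 1 captured RNA molecule), at most 20% mitochondrial UMIs, at least 3 UMIs of Hmga2 plus Rhox5, more of these than of C1qa, C1qb and C1qc together, and at most 1 UMI of Ptprc. Hmga2 and Rhox5 are genes of embryonic or germline tissue that MC38 cells express, and the C1q genes and Ptprc mark macrophages and leukocytes. Of 24263 barcodes with at least 2000 UMIs, 10185 passed these limits and 1528 of them formed the top 15%, 477 in the control and 1051 in the knockdown library. They are called high-scoring tumour cells here, and the score is the number of UMIs of the 5 genes per 10000 UMIs of a cell.

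MC38 is a mouse colon carcinoma line that grows as a tumour in mice. The control library came from an MC38 tumour labelled wild type for Mbtps1, and the knockdown library from one labelled Mbtps1 KD, which the series text calls a knockout. Mbtps1 encodes site-1 protease, which cuts membrane-bound transcription factors such as the SREBPs and ATF6 in the Golgi. The sources used here do not say how or in which cells Mbtps1 was lowered, nor the mouse strain, sex, age or number of animals. Each group is 1 library, so no test between groups was possible. Every 95% interval below covers counting error only, and treats UMIs as independent molecules.

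Long genes of the nervous system, many of which encode adhesion proteins, channels and guidance receptors, consist mostly of introns. A primary transcript stays in the nucleus while its introns are removed, and most mature mRNA, such as that of ribosomal proteins, lies in the cytoplasm. Malat1 is a long noncoding RNA that is kept in the nucleus. Single-cell counts of a long gene can therefore hold both spliced and unspliced RNA, depending on whether intronic reads were counted, which no source used here states.

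The 5 genes of the score do not share a function. Tafa1 encodes a secreted, chemokine-like protein of the brain. Zfpm2, also known as FOG2, is a zinc finger cofactor of GATA factors in heart and gonad. Kirrel3 and Sdk1 are adhesion proteins of the immunoglobulin superfamily that act at synapses, and Galnt13 is an enzyme that starts O-linked glycosylation. They lie on 5 chromosomes and each is long in GENCODE vM21 on GRCm38: Tafa1 at chr6:96113154-96657198 (544.0 kb), Zfpm2 at chr15:40655035-41104592 (449.6 kb), Kirrel3 at chr9:34485894-35036716 (550.8 kb), Sdk1 at chr5:141241490-142215586 (974.1 kb) and Galnt13 at chr2:54436317-55118309 (682.0 kb), all on the plus strand.

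Since these genes were high in the same cells by the rule, the bases before their starts are shown to compare their promoters. In the RefSeq promoter table on GRCm38.p6, 3 of the 5 genes had an entry. Each line gives the bases from up to 250 before the RefSeq start to the base before the first annotated transcript, on the plus strand and 5′ to 3′, with each GC box (GGGCGG, or its reverse complement CCGCCC, on either strand) in capitals. They cover chr6:96112904-96113153 for Tafa1, chr5:141241284-141241489 for Sdk1 and chr2:54436137-54436316 for Galnt13.
Tafa1: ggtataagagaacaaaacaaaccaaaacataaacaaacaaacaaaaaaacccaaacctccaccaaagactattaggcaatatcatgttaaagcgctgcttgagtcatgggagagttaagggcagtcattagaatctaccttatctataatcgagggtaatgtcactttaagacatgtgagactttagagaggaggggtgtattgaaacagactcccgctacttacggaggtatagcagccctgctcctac
Sdk1: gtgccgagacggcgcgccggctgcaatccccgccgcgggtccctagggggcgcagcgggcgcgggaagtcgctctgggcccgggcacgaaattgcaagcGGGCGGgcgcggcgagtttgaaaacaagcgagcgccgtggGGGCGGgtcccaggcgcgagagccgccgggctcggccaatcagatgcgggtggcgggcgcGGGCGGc
Galnt13: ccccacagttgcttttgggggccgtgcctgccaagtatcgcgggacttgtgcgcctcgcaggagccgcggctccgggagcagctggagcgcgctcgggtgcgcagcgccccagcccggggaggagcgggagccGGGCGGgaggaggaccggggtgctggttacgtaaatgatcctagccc

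The 3 sequences had no common make-up. That of Tafa1 held 0 GC boxes and 4 CpG dinucleotides in 250 bases at 40.8% GC, and 32.7% of 32851 mouse promoters of that length held a GC box. That of Sdk1 held 3 GC boxes and 34 CpG in 206 bases at 76.7% GC, a CpG number that 1.05% of promoters reached in the same window. That of Galnt13 held 1 GC box and 19 CpG in 180 bases at 71.7% GC, a CpG number that 7.98% reached. These counts describe letters only.

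The score fixed the level of the 5 genes, so their values are a description. In UMIs per 1000000 summed UMIs (CPM), Tafa1 was at 1078 in high-scoring and 228 in other tumour cells of the control library, and at 1442 and 344 in the knockdown library. Zfpm2 was at 1082 and 344 in control and at 1370 and 439 in knockdown. Kirrel3, the lowest of the adhesion genes, was at 475 and 78.1 in control and at 292 and 57.7 in knockdown. All 3 genes were higher in the high-scoring cells of both libraries, by 3.12-fold (knockdown Zfpm2) to 6.09-fold (control Kirrel3). Sdk1 was at 1640 and 398 in control and at 1299 and 340 in knockdown. Galnt13 was at 79.0 and 25.8 in control and at 123 and 44.6 in knockdown. CPM is not scaled to gene length, so the order of the 5 levels is not an order of expression per length. In 3322 control and 2465 knockdown barcodes gated as macrophages (at least 10 C1q UMIs and 0 of Hmga2 plus Rhox5), the 5 genes lay between 0.643 and 17.8 CPM, from which free RNA in droplets was not separated. The plot of these levels shows the macrophage gate far below both groups of tumour cells for each gene.

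**Figure D1:**
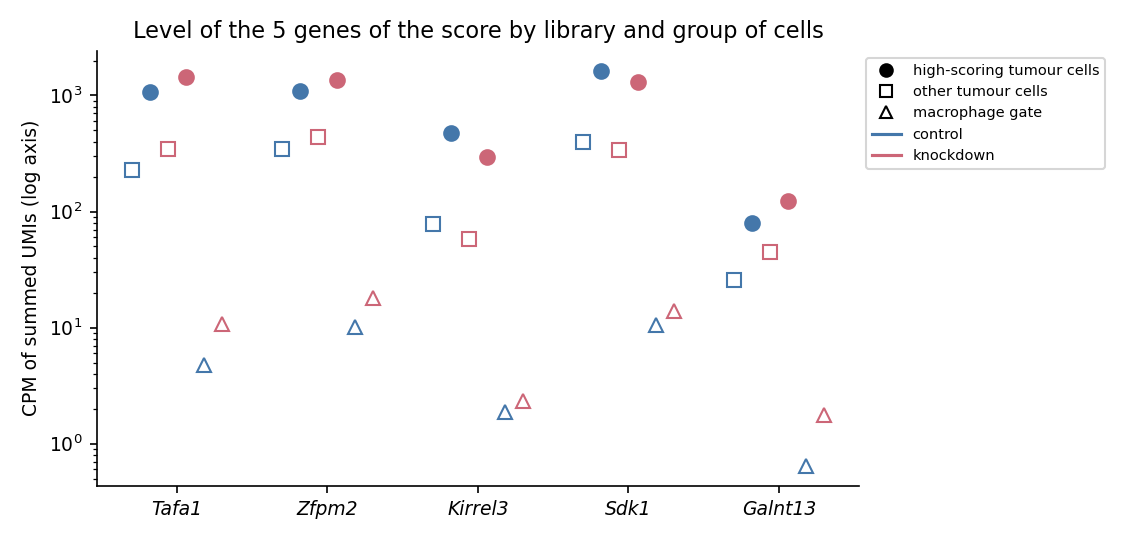
Level of the 5 genes of the score as CPM of summed UMIs (log axis) in high-scoring tumour cells (filled circles), other tumour cells (squares) and barcodes gated as macrophages (triangles) of the control (blue) and knockdown (red) libraries, 1 value per library. High-scoring cells lie above other tumour cells by rule, and macrophages lie at or below 17.8 CPM.

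The threshold stood at 30.39 UMIs per 10000, against a median of 11.68 over all tumour cells. The lowest score inside it was 30.407 and the highest outside 30.387. The 10th cells inside and outside stood at 30.523 and 30.319, so the threshold cuts a continuous range and does not separate a type. Among high-scoring cells the score ran from 30.407 over a median of 39.3 to 154.9 in control and from 30.438 over 42.0 to 197.2 in knockdown. Other tumour cells had medians of 8.18 and 10.2.

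Cells reached a high score through different genes. All 5 genes had a UMI in 125 control (26.2%) and 227 knockdown (21.6%) high-scoring cells. Sdk1 gave the most UMIs in 50.1% of the control cells and 26.4% of the knockdown cells. Tafa1 led in 20.8% and 34.8%, Zfpm2 in 17.0% and 30.3%, and Kirrel3 in 10.3% and 4.38%. Sdk1 was thus the most frequent leader in control and Tafa1 in knockdown. Galnt13 led in 1 control and 4 knockdown cells, and 8 and 40 cells had a tie. Kirrel3 was uneven: 202 of 477 control and 587 of 1051 knockdown cells had 0 UMIs of it, and the tenth of cells with most of it held 53.5% and 63.7% of its UMIs. The same share for Sdk1 was 24.6% and 28.6%.

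After each cell was thinned to 2000 UMIs, Sdk1 was detected in 91.2% of control and 83.4% of knockdown high-scoring cells (98.7% and 98.5% unthinned), against 2.44% and 2.23% of macrophages. Tafa1 was detected in 70.6% and 82.8% (93.1% and 96.6% unthinned), against 0.843% and 2.23%. Kirrel3 was detected in 35.4% and 23.8% (57.7% and 44.1% unthinned), against 0.301% and 0.527%. Other tumour cells, thinned alike, stood at 42.6% and 40.3% for Sdk1, 28.0% and 38.2% for Tafa1, and 9.68% and 7.5% for Kirrel3. High-scoring cells were chosen by these genes, so their higher detection follows the rule. Detection in macrophages was far lower than in either group of tumour cells for each of these genes. Unthinned, macrophages had medians of 6544.5 and 4630 UMIs a cell, against 22870 and 14707 in high-scoring cells. Between pairs of the 5 genes, Spearman's rho over high-scoring cells ran from -0.118 to 0.126 at equal depth, in cells that a sum of the 5 had chosen. Over other tumour cells it ran from -0.024 to 0.199. When 1 gene was left out of the score and the cells ranked by the other 4, the left-out gene was still higher in the top 15%: by 2.73-fold and 2.55-fold for Tafa1, 2.19-fold and 2.16-fold for Zfpm2, 3.22-fold and 2.51-fold for Kirrel3, 2.53-fold and 2.53-fold for Sdk1 and 2.41-fold and 2.17-fold for Galnt13, in control and knockdown. Such a rise was not particular to these genes. With the full score, 91.1% of genes over 300 kb with at least 5 CPM were at least 1.5 times higher in both libraries. Their median log2 ratios were 1.12 and 1.02.

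High-scoring cells held more kinds of RNA for their depth than other tumour cells, more Malat1 and less ribosomal protein mRNA. Their median depth was 22870 UMIs in control and 14707 in knockdown, close to the 22520 and 14886 of other tumour cells. At 2000 UMIs they showed a median of 1155 and 1150 genes, against 1021 and 1036. Malat1 gave a median of 1.05% and 0.874% of a cell's UMIs, against 0.288% and 0.228%. Genes of ribosomal proteins gave 22.02% and 22.46%, against 28.9% and 28.5%. The mitochondrial share was 3.51% and 3.03%, against 2.847% and 2.503%. Apart from depth, these medians differed the same way in both libraries. Their part in the gene results below was not tested. Scrublet called 1 control (0.210%) and 12 knockdown (1.14%) high-scoring cells doublets, below the 1.54% and 2.51% of other tumour cells.

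Tumour cells were also ordered by score in 6 percentile bins. From the lowest bin (percentiles 0 to 25) to the highest (95 to 100), Malat1 went from 2120 to 16470 CPM in control and from 1363 to 14230 in knockdown. The share of ribosomal protein UMIs went from 32.7% to 19.3% and from 32.2% to 20.2%. Genes spanning at least 100 kb, without those of the score, went from 4.22% to 15.7% and from 4.31% to 15.5% of UMIs. The gate genes took opposite directions: Hmga2, a chromatin protein gene of 115 kb, went from 197 to 906 CPM in control and from 327 to 1294 in knockdown, and Rhox5, a homeobox gene of 4.04 kb, from 573 to 342 and from 495 to 301. The plot by score shows the long-gene, Malat1 and ribosomal shares changing through all tumour cells, with no step at the threshold. The median mitochondrial share changed little around the threshold. It rose in the last bin, from 3.35% to 4.48% in control and from 2.87% to 3.61% in knockdown.

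**Figure D2:**
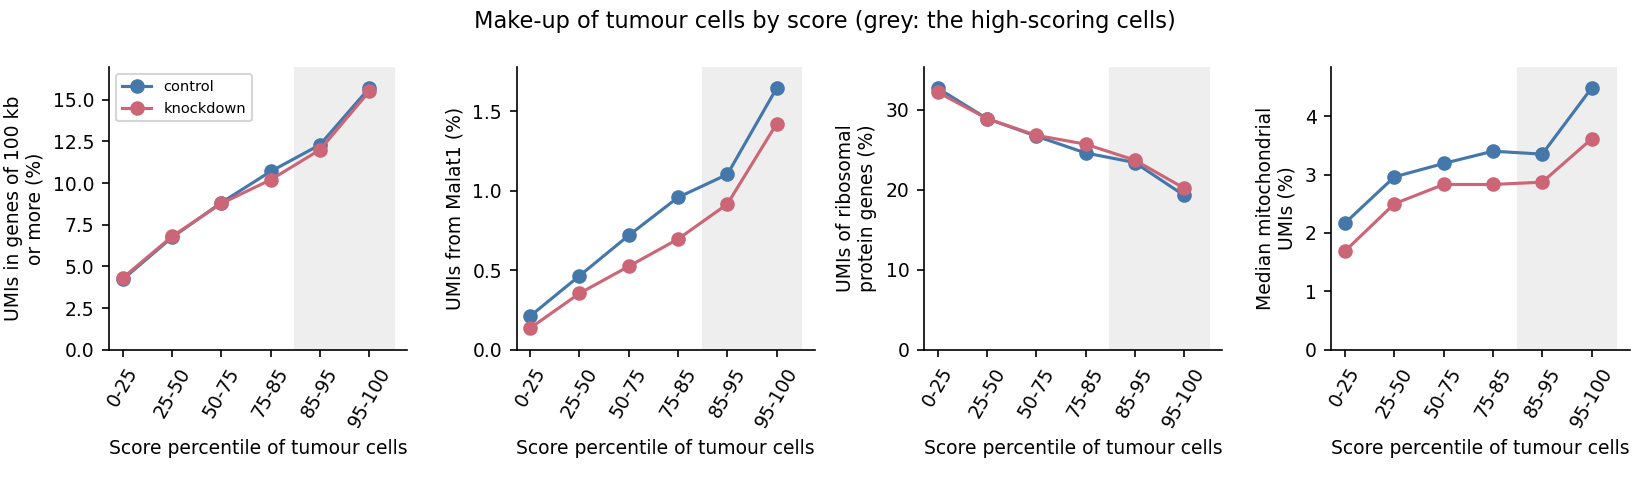
Share of UMIs in genes of at least 100 kb without the score genes, share of UMIs from Malat1, share in ribosomal protein genes, and median mitochondrial share (all in %) against score percentile of the tumour cells, for control (blue) and knockdown (red). The grey area marks the high-scoring cells; the long-gene share reaches 15.7% and 15.5% in the last bin.

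Almost all of the difference between high-scoring and other tumour cells ran in one direction. Of 9807 genes with at least 5 CPM, 1885 (19.2%) were at least 1.5 times higher in high-scoring cells in both libraries and 30 (0.306%) at least 1.5 times lower. In control alone 2564 (26.1%) were higher and 113 (1.15%) lower, and in knockdown alone 2084 (21.3%) and 74 (0.755%). The ratios of both libraries had a Spearman's rho of 0.931 across genes, which are not independent. The median gene itself lay at a log2 ratio of 0.24 in control and 0.20 in knockdown. Relative to that median, 881 genes were higher and 372 lower in both libraries, so that higher genes made up 70.3% of the calls in place of 98.4%.

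The 12 named genes with the highest ratios, taken by the end of their interval, all spanned between 266 and 1211 kb. Csmd3, which encodes a large membrane protein with CUB and sushi domains, was at 188 CPM in high-scoring and 47.2 in other control cells (3.98-fold, 95% interval 3.78 to 4.19). In knockdown it was at 202 and 55.7 (3.63-fold, 3.47 to 3.797). Adgrl3, a latrophilin receptor of synapses, was at 267 and 76.1 CPM in control and at 291 and 93.2 in knockdown (3.51-fold and 3.12-fold). Csmd3 had a higher ratio in both libraries than Zfpm2, which was itself in the score. Cdh18, a cadherin of neurons, was at 83.6 and 24.4 CPM in control and at 67.9 and 21.5 in knockdown (3.43-fold and 3.16-fold). Kcnq5, a potassium channel, was the most abundant of the 12, at 616 and 200 CPM in control and at 630 and 233 in knockdown (3.08-fold and 2.70-fold). Unc5d, a netrin receptor, was at 78.2 and 26.4 CPM in control and at 151 and 43.9 in knockdown (2.96-fold and 3.44-fold). Apart from Csmd3, these genes belong to the neural lists, as do Robo2, a receptor for SLIT proteins (2.78-fold and 2.98-fold), and the protocadherin Pcdh9 (2.77-fold in both).

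Csmd3 and the other 5 of the 12 are on no neural list. Rbms3, an RNA-binding protein gene of 1057 kb, was at 614 and 194 CPM in control and at 506 and 178 in knockdown (3.17-fold and 2.84-fold). Dpyd, the enzyme that degrades pyrimidines and fluorouracil, was at 30.6 and 8.37 CPM in control and at 19.6 and 6.09 in knockdown (3.65-fold and 3.22-fold). Gpc6, a cell-surface heparan sulfate proteoglycan, was 2.88-fold higher in both libraries. The transcription factor gene Klf12 was 3.08-fold and 2.88-fold higher, and Mmp16, a membrane-type metalloprotease, 2.93-fold and 2.78-fold. Their functions differ from one another, and all are long.

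The span of a gene, from its first to its last annotated base with introns, went with its ratio across all genes. Of genes under 20 kb, 79 of 4107 (1.92%) were called higher, with a median log2 ratio of -0.11 in control and -0.10 in knockdown. Of those between 20 and 100 kb, 817 of 4370 (18.7%) were higher, with medians of 0.40 and 0.34. Of those between 100 and 300 kb, 773 of 1093 (70.7%) were higher, with medians of 0.84 and 0.77. Over 300 kb, 216 of 237 (91.1%) were higher, with medians of 1.12 and 1.02. Spearman's rho between span and log2 ratio was 0.733 in each library, and 0.633 and 0.616 for the summed exon length. Within genes over 300 kb, 110 of 118 with shorter (93.2%) and 106 of 119 with longer summed exons (89.1%) were higher. In shorter spans the genes with longer exons were called more often: 430 of 547 (78.6%) against 343 of 546 (62.8%) between 100 and 300 kb, and 561 of 2185 (25.7%) against 256 of 2185 (11.7%) between 20 and 100 kb. Genes over 300 kb gave 3.58% and 3.42% of UMIs in high-scoring cells, against 1.61% and 1.64% in other tumour cells, and genes under 20 kb 61.3% and 61.2%, against 71.8% and 70.9%.

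Among genes of at least 100 kb, those of the neural lists were called higher at shares a little above those of other genes. The 4 lists of adhesion and synaptic organiser genes, cadherins, axon guidance genes and synaptic channels and scaffolds, with the neuron markers, had 61 members at 5 CPM or more, of which 43 (70.5%) were higher, against 1842 of 9746 other genes (18.9%). Over 300 kb, 21 of 22 neural genes (95.5%) and 195 of 215 other genes (90.7%) were higher, with median log2 ratios of 1.34 against 1.10 in control and 1.25 against 0.999 in knockdown. Between 100 and 300 kb, 16 of 21 (76.2%) and 757 of 1072 (70.6%) were higher. Between 20 and 100 kb the shares were further apart, 5 of 15 (33.3%) and 812 of 4355 (18.6%), with medians of 0.69 against 0.40 in control and 0.46 against 0.34 in knockdown. Under 20 kb, 3 neural genes were tested. The label of neural adhesion genes therefore covers part of what these cells have in common, and the rule, not a neural type, names them here.

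**Figure D3:**
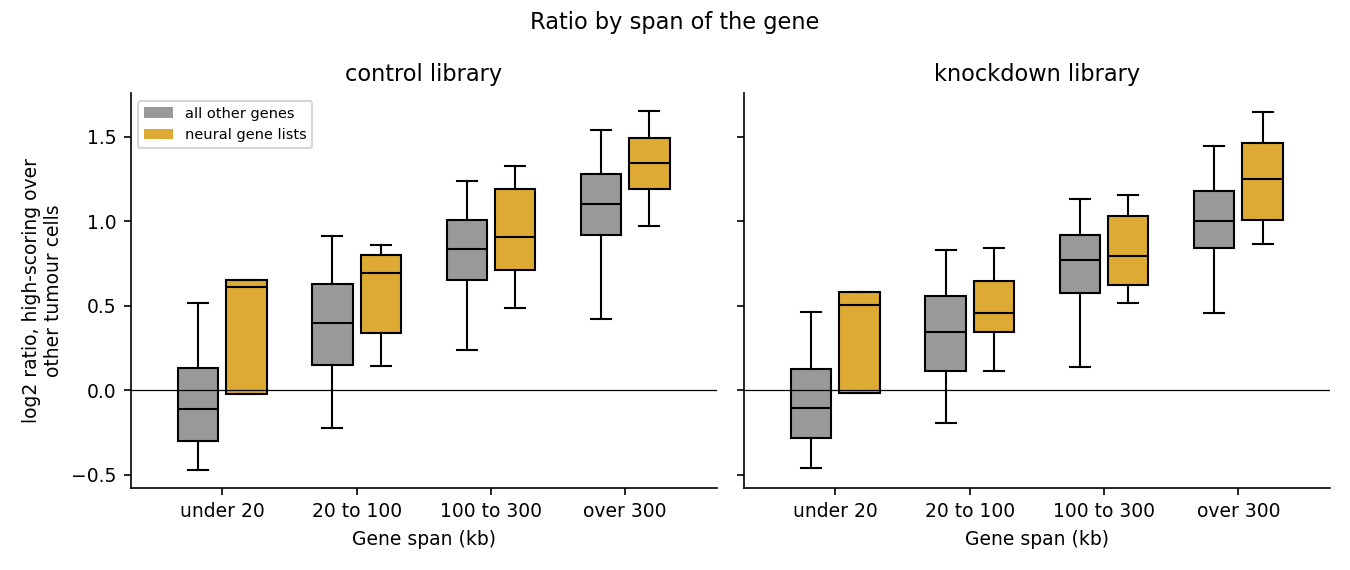
Log2 ratio of high-scoring over other tumour cells by gene span in kb, for genes of the neural lists (yellow) and all other genes (grey), in the control and knockdown libraries. Boxes show median and quartiles and whiskers percentiles 5 and 95 over genes; the yellow box under 20 kb rests on 3 genes. Medians of all other genes climb from near 0 under 20 kb to 0.999 or more over 300 kb. Those of neural genes stand at 0.61 (control) and 0.51 (knockdown) under 20 kb. They stand at 0.69 and 0.46 from 20 to 100 kb and at 1.34 and 1.25 over 300 kb.

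Abundant long genes with general roles were higher as well. Utrn, the cytoskeletal protein utrophin, was at 1005 and 471 CPM in control and at 1275 and 580 in knockdown (2.13-fold and 2.20-fold). Bnc2, a zinc finger protein of mesenchymal cells, was 2.69-fold and 2.62-fold higher, the kinase gene Prkca 2.26-fold and 2.16-fold, and Pvt1, a noncoding RNA next to Myc, 2.19-fold and 2.06-fold. Of the genes over 300 kb, 21 were not called higher. Camta1, a calmodulin-binding transcription factor, stood at 30.4 and 30.8 CPM in control and at 33.3 and 32.4 in knockdown. Dlgap1, a postsynaptic scaffold, stood at 24.2 and 24.0 CPM and at 45.9 and 46.0. Fry, a regulator of kinases at the cell cortex that spans 379 kb, was lower, at 7.57 and 15.4 CPM in control and at 25.01 and 48.3 in knockdown (0.493 and 0.518 times). It was the only called-lower gene of at least 100 kb, and these long genes were picked after their values were seen.

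Malat1 was the most abundant short gene called higher. Its 6.98 kb lie at chr19:5795690-5802672 on the minus strand. It was at 12421 CPM in high-scoring and 5219 in other control cells (2.38-fold, 2.37 to 2.39) and at 10609 and 4114 in knockdown (2.58-fold, 2.56 to 2.59). Macrophages had 6416 and 5542 CPM of it. Of 5 tested nuclear RNA genes, 3 were higher and 0 lower, with medians of 1.01 and 0.87, against 19.2% higher over all genes. Gas5, a noncoding RNA host of small nucleolar RNAs, was at 0.726 and 0.754 times. Other short genes that were higher include the splicing kinase gene Clk1 (1.52-fold and 1.58-fold), the RNA helicase gene Ddx17 (1.66-fold and 1.56-fold) and Dnm3os, an antisense RNA (2.15-fold and 2.04-fold). These were also picked after their values were seen. How counting treated the strand is not stated, and whether reads of Dnm3os and its host gene were told apart was not checked.

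The neural lists in detail show how many members were measurable. For comparison, 19.2% of all tested genes were called higher. Of the adhesion and synaptic organiser genes, 14 of 57 passed 5 CPM, 9 were higher and 0 lower, with medians of 0.91 and 0.88. Tenm3, a teneurin, was at 567 and 213 CPM in control and at 359 and 150 in knockdown, and Ncam1 at 347 and 152 and at 375 and 169. Of the cadherins, protocadherins and catenins, 11 of 33 passed and 6 were higher (0.75 and 0.69). Of axon guidance genes, 22 of 40 passed and 16 were higher (0.88 and 0.80), among them Slit2, a secreted guidance protein (2.27-fold and 2.07-fold), and Nrp1, a semaphorin and VEGF coreceptor (1.88-fold and 1.81-fold). Epha2, an ephrin receptor gene of 28.1 kb, was at 0.901 and 0.928 times. Of synaptic channels, receptors and scaffolds, 13 of 43 passed and 12 were higher (1.20 and 1.03). Among relatives of the score genes, 5 of 12 tested were higher (0.71 and 0.56), from Galntl6, an enzyme of the family of Galnt13 spanning 1139 kb (3.12-fold and 2.42-fold), to the GATA factor gene Gata6 of 33.6 kb (1.21-fold and 1.12-fold). None of these lists held a gene called lower.

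Defining markers of neurons were nearly absent. Of 15 neuron markers, 1 passed 5 CPM over all tumour cells and 3 over high-scoring cells alone. In high-scoring cells 7 were at 0 (Elavl4, Rbfox3, Nefl, Nefh, Dcx, Scg2 and Chga). Tubb3, a tubulin that many tumour lines express, was the one that passed over all tumour cells. It was at 18.4 and 28.9 CPM in control and 32.6 and 47.3 in knockdown. The summed level of the list was 33.6 and 43.5 CPM in high-scoring cells, below the 38.1 and 55.0 of other tumour cells. The gap in Tubb3 was larger than that in the sum. The other markers together were therefore higher in high-scoring cells of both libraries, at low levels. For Schwann cell and melanocyte markers the sum was 33.6 and 30.4 CPM against 20.2 and 20.1, led by Mitf, a melanocyte factor of 214 kb (2.39-fold and 1.84-fold). Of 17 keratin and epithelial genes 0 passed and 10 were at 0, Krt18, Krt19, Cdx1 and Cdx2 among them, while Krt8 had 5 UMIs in control and 10 in knockdown high-scoring cells.

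Markers of most host cell types were no higher than in other tumour cells. Macrophage and monocyte markers summed to 302 and 329 CPM in high-scoring cells against 308 and 338, T and NK cell markers to 9.93 and 20.6 against 12.1 and 29.5, endothelial markers to 6.44 and 12.3 against 14.9 and 17.5, and keratinocyte markers to 27.3 and 48.7 against 47.5 and 55.0. Neutrophil and dendritic markers summed to 91.9 and 81.8 against 87.0 and 74.6. Most of that sum was Fscn1, at 87.3 and 71.4 CPM against 83.5 and 66.5. The other 11 of these 12 markers were each under 5 CPM in high-scoring cells. Fibroblast and pericyte markers summed to 1321 and 1190 CPM against 1277 and 1025, of which Pdgfra, a growth factor receptor (2.06-fold and 1.85-fold), was the 1 of 9 tested called higher. Xist, the noncoding RNA of the inactive X chromosome in females, was at 2.96 and 4.23 CPM, against 586 and 546 in macrophages. Of the tumour cell markers, 2 of 11 were tested and both were higher, Igf2bp3 (1.78-fold and 1.59-fold) and Lin28b (1.61-fold and 1.59-fold), and both span over 100 kb. The gate genes Hmga2 and Rhox5, also on that list, were left out of testing and went opposite ways. Hmga2 was at 788 and 1134 CPM in high-scoring cells against 427 and 655, and Rhox5 at 403 and 342 against 522 and 440. Krt18 and Igf2bp1 were at 0 in high-scoring cells. The share called higher over all tested genes was 19.2%.

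The 12 named lower genes were mostly short, 9 of them under 20 kb. Cox6a2, a cytochrome oxidase subunit, was at 21.4 and 61.6 CPM in control and at 18.9 and 42.7 in knockdown (0.348 and 0.443 times). Birc5, the mitotic protein survivin, was at 88.0 and 144 CPM in control and at 103 and 186 in knockdown (0.613 and 0.555 times). Cdc20, an activator of the anaphase-promoting complex, was at 36.4 and 61.3 CPM and at 39.7 and 64.2 (0.594 and 0.618 times). Of 24 S phase genes 0 were called either way (medians 0.02 and -0.14). Of 24 genes of G2 and mitosis, Birc5 and Cdc20 among them, 0 were higher and 2 lower (-0.03 and -0.11). Across all tested genes 19.2% were higher and 0.306% lower, with medians of 0.24 and 0.20. Top2a, a topoisomerase gene of 31.2 kb, was at 1.19 and 1.04 times, and Ube2c, of 8.93 kb, at 0.720 and 0.621 times.

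Among the rest, the ubiquitin enzyme gene Ube2s was at 0.648 and 0.668 times, the mitochondrial ribosome gene Mrpl12 at 0.636 and 0.642, and the histone genes Hist1h2ap and Hist1h4i at 0.632 and 0.570 and at 0.537 and 0.608. The chemokine gene Ccl5 was at 181 and 293 CPM in control and at 147 and 245 in knockdown (0.618 and 0.599 times). Histone genes are near-identical copies, so their counts are uncertain. Igfbp7 (0.256 and 0.301 times) and Ctla2a (0.312 and 0.265) were at or below 15.6 CPM in each group. So was the matrix protein gene Postn (0.515 and 0.450), for which 66.3% of its UMIs in control high-scoring cells came from 1 cell. Without the cell with most of its UMIs in each group, its ratio in control was 0.193.

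Several gene groups held long members called higher beside short members that were not called. Over all tested genes 19.2% were called higher and 0.306% lower, with median log2 ratios of 0.24 and 0.20. Of 81 ribosomal protein genes 0 were called, with medians of -0.38 and -0.33. Of 27 collagen and matrix genes 2 were higher, Col5a2 among them (184 and 117 CPM in control, 90.9 and 48.2 in knockdown), and 1 was lower, Postn. Of 18 TGF-beta and BMP pathway genes 8 were higher (0.59 and 0.55), such as the coreceptor gene Tgfbr3 of 183 kb (2.23-fold and 2.15-fold), while the short target gene Id1 was at 0.643 and 0.951 times and Inhba, an activin subunit gene of 19.8 kb, at 1.47 and 1.36 times. Of 8 WNT and Notch genes 5 were higher (0.88 and 0.86), with Tcf7l2, of 192 kb, at 2.12-fold and 2.01-fold, Wnt5a, a WNT ligand gene of 22.7 kb, at 1.65-fold and 1.44-fold and Hes1, of 3.41 kb, at 0.769 and 1.01 times. Of 20 growth factor receptors and ligands 8 were higher (0.60 and 0.54), with Egfr at 2.36-fold and 1.98-fold and Pdgfa at 0.915 and 1.01 times. Of 16 mesenchymal regulators and cytoskeletal genes 3 were higher (0.04 and 0.04), with Zeb1 at 2.44-fold and 2.47-fold and Lgals1 at 0.810 and 0.777 times.

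Few or no genes were called in the interferon, MHC class I, heat shock and ER chaperone groups, against 19.2% higher over all tested genes. Of 25 interferon response genes 0 were higher and 1 lower, the chemokine gene Cxcl9 (130 and 226 CPM in control, 73.5 and 110 in knockdown), with medians of 0.07 and 0.10. Of 16 MHC class I genes 1 was higher (-0.18 and -0.12), the regulator Nlrc5, of 92.9 kb (1.81-fold and 1.55-fold), while B2m was at 0.938 and 0.946 times. Counts were 0 either way for 19 immediate early genes (-0.08 and -0.13), 11 heat shock genes (-0.11 and -0.14), 21 hypoxia and glycolysis genes (0.00 and 0.15) and 19 ER chaperones (0.07 and 0.13). Of 19 genes of the integrated stress response and serine synthesis 1 was higher (-0.26 and -0.22), the cystine transporter gene Slc7a11, which spans 551 kb, and of 12 p53 targets 3 were higher (0.14 and 0.01), Sesn1 among them. Of 20 cholesterol synthesis genes 1 was higher (0.27 and 0.36). Of 14 genes of the site-1 protease pathway 4 were higher (0.52 and 0.41), such as Creb3l2, of 115 kb (2.12-fold and 1.98-fold), while Creb3, of 4.73 kb, was at 0.822 and 0.995 times. Of 4 imprinted growth genes 3 were higher (0.79 and 0.77). The shares of p53 targets, site-1 protease pathway and imprinted growth genes lay above that over all genes, each on few genes.

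To see what remained beyond the long-gene share, cells were put in bins of the share of UMIs from genes of at least 100 kb outside the score and neural lists, and both groups were given the same weight in each bin. This comparison was added after the data were seen. Genes called higher then numbered 10 of 9807 and genes called lower 34. Of the 34, 10 were among the 30 called lower before. Malat1 stood at 0.939 and 1.02 times. Neural genes of at least 100 kb had a median log2 ratio of 0.19 in control and 0.15 in knockdown, with 4 of 43 called higher, and other genes of that span 0.10 and 0.04, with 4 of 1287. The other long genes set the bins and the neural genes did not, so this contrast is partly fixed by construction. The 5 score genes stayed higher by rule, Kirrel3 most (4.97-fold and 3.82-fold) and Galnt13 least (1.68-fold and 1.56-fold).

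The 10 that remained, named after their values were seen, were Adcy8, an adenylyl cyclase (2.31-fold and 1.71-fold), the cadherin gene Cdh26 of 56.8 kb (1.93-fold and 1.79-fold), Cdh18 (1.81-fold and 1.67-fold), Kcnq5 (1.72-fold and 1.54-fold), Gpc6 (1.65-fold and 1.54-fold), Unc5d (1.62-fold and 1.77-fold), Adgrl3 (1.53-fold and 1.87-fold), Mmp16 (1.53-fold and 1.61-fold), the oestrogen receptor gene Esr1 (1.53-fold and 1.52-fold) and the unnamed model Gm16036 (2.21-fold and 2.05-fold). Csmd3 stood at 1.62-fold and 1.48-fold. Robo2 was near its level in other cells in control, with log2 ratios of -0.04 and 0.25 in the plot of ratios before and after.

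**Figure D4:**
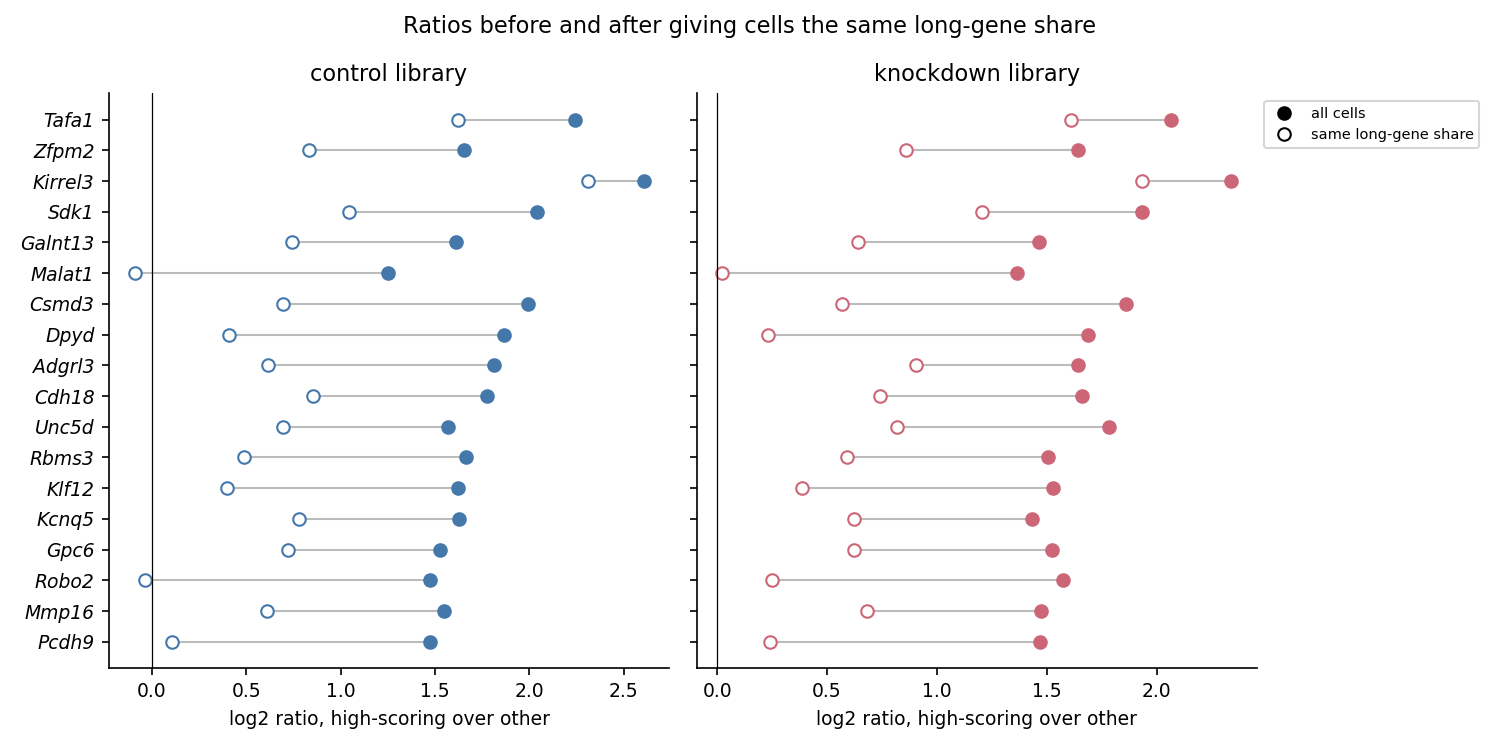
Log2 ratio of high-scoring over other tumour cells for the 5 score genes, Malat1 and the 12 named higher genes, over all cells (filled) and with both groups given the same share of UMIs in long genes (open), in each library. Malat1 in both libraries and Robo2 in control move to near 0, and Kirrel3 and Tafa1 stay at 1.61 or more.

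Ranking the tumour cells by other measures gave partly the same cells. The top 15% by the long-gene share (11.3% of UMIs or more) included 309 control and 626 knockdown high-scoring cells, which is 64.8% and 59.6% of the high-scoring cells and 52.9% and 66.3% of that group. Sdk1 was 3.49-fold and 3.15-fold higher in it, although no score gene entered the ranking, and Galnt13 2.5-fold and 2.51-fold. The top 15% by the share of Malat1 included 236 and 409 high-scoring cells (49.5% and 38.9% of them). Across tumour cells, Spearman's rho with the score was 0.834 and 0.820 for the long-gene share, 0.657 and 0.644 for Malat1, -0.571 and -0.522 for ribosomal protein genes and 0.201 and 0.102 for depth, all from the same UMIs.

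High-scoring cells made up 11.57% of control tumour cells (477 of 4124, 95% Clopper-Pearson interval 10.6 to 12.6) and 17.34% of knockdown tumour cells (1051 of 6061, 16.4 to 18.3), a ratio of 1.499 (1.34 to 1.67). At equal depth the order was the same in each of 5 bins of UMIs per cell, from 27.0% and 36.2% at 2000 to 4000 UMIs to 12% and 16.9% at 32000 and over, although in the first and last bin, as in that from 4000 to 8000, the intervals overlapped. The ratio turned on what ranked the cells. It was 2.05 without Sdk1, the score gene of highest CPM in control, and 1.24 without Tafa1. By the long-gene share it was 1.10 (14.2% and 15.6%), and by Malat1 0.813 (16.9% and 13.7%), the opposite direction. The 2 libraries differ in Mbtps1 label, depth and tumour, which cannot be told apart.

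Mbtps1 itself was lower in the knockdown library in both groups of tumour cells. It was at 37.8 CPM in control and 19.3 in knockdown high-scoring cells (0.511 times, 0.441 to 0.592) and at 27.5 and 11.01 in other tumour cells (0.400 times, 0.370 to 0.432). High-scoring cells had 1.37 and 1.75 times the level of other tumour cells, for a gene of 50.6 kb.

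The score genes differed between the libraries in opposite directions, alike in both groups of cells. Knockdown over control, Tafa1 was at 1.34 times in high-scoring and 1.51 in other tumour cells, Zfpm2 at 1.27 and 1.28, and Galnt13 at 1.56 and 1.73. Kirrel3 was at 0.615 and 0.739 times and Sdk1 at 0.792 and 0.854. In high-scoring cells these ratios are tied to the rule, which took cells above the same score in both libraries.

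Over 10123 genes with at least 5 CPM in high-scoring cells, 333 (3.29%) were at least 1.5 times higher in knockdown and 295 (2.91%) lower. In other tumour cells 359 (3.55%) of the same genes were higher and 268 (2.65%) lower. The genes that differed most did so mainly in both groups of cells. Grm3, a glutamate receptor, was at 38.4 CPM in control and 124 in knockdown high-scoring cells (3.24 times, 2.92 to 3.601), and 3.55 times in other tumour cells. The chemokine gene Cxcl1 was at 29.7 and 88.2 CPM (2.97 times, and 2.55 in other cells), and Galnt18, an O-glycosylation enzyme, at 14.1 and 49.0 (3.47 and 2.65). Enah, an actin regulator, was at 3.13 and 12.9 CPM (4.13 and 3.00), and the sperm protein gene Adam2 at 2.87 and 11.8 (4.12 and 4.19), with 36 and 33 UMIs in control high-scoring cells.

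Other large ratios also rested on few UMIs or on 1 cell. Nppb, a natriuretic peptide, had 7 UMIs in control and 179 in knockdown high-scoring cells (18.0 times, 8.56 to 45.4, and 2.08 in other cells). Timp3, a metalloprotease inhibitor, had 19 and 160, of which 1 control cell held 16 (5.93 times, or 32.4 without the top cell of each library, and 1.49 in other cells). The complement gene C3 had 36 and 206, of which 1 knockdown cell held 65 (4.03 times, or 2.92 without those cells, and 1.11 in other cells). The keratin gene Krt14 had 87 and 423 (3.42 and 1.63) and Pbld1 45 and 278 (4.35 and 2.44). On the lower side, Pla2g10, a secreted phospholipase, had 163 and 21 UMIs, with 106 in 1 control cell (0.091 times, and 2.37 in other cells), and Enpp2, the enzyme autotaxin, 188 and 51 (0.191 and 0.419).

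H19 and several matrix genes were lower in knockdown. H19, an imprinted noncoding RNA, was at 1085 CPM in control and 341 in knockdown high-scoring cells (0.314 times, 0.304 to 0.324), and 0.287 times in other tumour cells. Mfap4, a microfibril protein, was at 74.5 and 3.07 CPM (0.041 times, and 0.079 in other cells), Tnc, the matrix protein tenascin C, at 17.1 and 1.10 (0.065 and 0.110), and Cilp, of cartilage, at 18.1 and 1.84 (0.102 and 0.109). In knockdown high-scoring cells Mfap4 had 50 UMIs, found in 20 cells, with 15 of them in 1 cell. Tnc had 18 UMIs there, 7 of them in 1 cell, and Cilp 30, 9 of them in 1 cell. Tgfb3, a TGF-beta ligand, was at 134 and 37.6 CPM (0.280 and 0.307), and the proteoglycan gene Bgn at 60.7 and 18.4 (0.303 and 0.236). Runx1t1, a corepressor, was at 0.288 and 0.384 times and Fkbp14, a collagen folding enzyme, at 0.265 and 0.332. Of 25 tested collagen and matrix genes, 10 were lower and 1 higher (median log2 ratio -0.29, and -0.57 in other cells), and of 8 fibroblast and pericyte markers 5 were lower and 1 higher (-0.97 and -0.89). Over all tested genes 2.91% were lower and 3.29% higher in high-scoring cells.

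**Figure D5:**
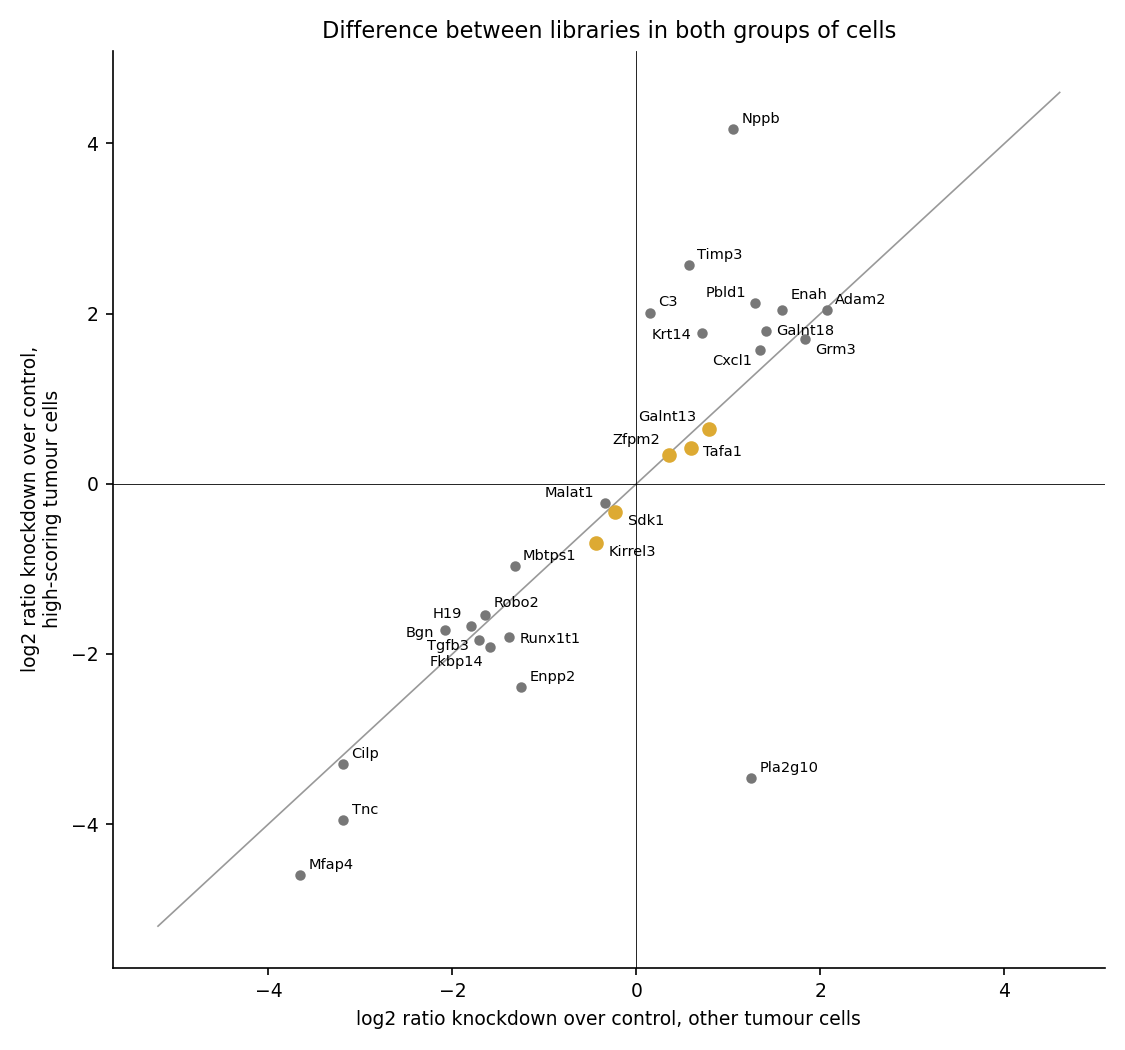
Log2 ratio of knockdown over control in high-scoring (vertical axis) against other tumour cells (horizontal axis) for the 5 score genes (yellow) and the genes named for the comparison of libraries (grey); the line marks equal ratios. Most genes lie near the line, and Nppb, Timp3, C3, Krt14, Pla2g10 and Enpp2 lie away from it.

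Neural genes had no common direction between the libraries. In high-scoring cells, 1 of 17 adhesion and synaptic organiser genes was higher in knockdown and 2 lower, 6 and 4 of 23 axon guidance genes, 2 and 2 of 16 synaptic genes, and 0 and 2 of 11 cadherins, against 3.29% higher and 2.91% lower over all genes (median log2 ratios 0.08, 0.04, -0.06 and -0.04). Robo2 was at 205 CPM in control and 70.5 in knockdown (0.343 times, and 0.320 in other cells), and Pcdh9 at 388 and 227 (0.586 and 0.588). Unc5d was at 78.2 and 151 CPM (1.93 and 1.66), and the neuron navigator gene Nav2 at 37.0 and 94.8 (2.56 and 2.54). Of S phase genes 4 of 24 were higher in knockdown and 0 lower (0.47, and 0.54 in other cells), and 2 of 24 genes of G2 and mitosis (0.29 and 0.34). Of interferon response genes 4 of 25 were lower and 0 higher, and of immediate early genes 4 of 18 higher and 3 lower. None of 20 cholesterol synthesis genes passed 1.5 times (-0.17 and -0.22), nor did any of 19 ER chaperones (-0.16 and -0.22).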

How the data were processed

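The data are 3' single-cell RNA libraries of dissociated MC38 tumours, 1 control and 1 Mbtps1 knockdown. Raw UMI counts for every barcode and 32285 features were deposited, and these counts carry Cell Ranger 4 as their software version. No source used here states the genome build, the annotation or how introns were treated. The labels' protocols state about 6000 cells loaded and 3000 targeted, whereas 11131 control and 13132 knockdown barcodes held at least 2000 UMIs. Total counts were 177399315 and 174190399. The libraries shared 5 barcodes among the tumour cells, which were kept.

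UMIs were summed per library and group of cells and given as CPM of the sum. Ratios carry 95% exact conditional binomial intervals and shares 95% Clopper-Pearson intervals. A gene was tested at 5 CPM or more and called past 1.5 times, in both libraries for high-scoring against other cells. Score, gate and mitochondrial genes were left out. No test was made, since each group has 1 library. Gene spans came from GENCODE vM21 by Ensembl identifier, for 99.8% of features. Scrublet in scanpy 1.11.5, set to 6% doublets, called 451 of 11079 control and 702 of 13085 knockdown cells, which were kept and left out in an alternative. Thinning drew 2000 UMIs per cell. The ratio script was tested on simulated data. Python 3.11.15, numpy 2.4.6, scipy 1.17.1, pandas 2.3.3 and matplotlib 3.10.9 were used.

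The members and the 35 gene lists were chosen with earlier results of these data known. Named genes are the score genes, Mbtps1, the 12 highest and 12 lowest ratios and the 10 highest and 10 lowest between libraries by the interval end nearest 0, and, per list, the 2 members of highest CPM and those of highest and lowest ratio, without Gm and Rik models. Alternatives changed the share of cells taken, the gate, the score genes, the scaling and the gene filter.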

Additional observations from a re-analysis of the deposited data

Results flagged for a closer look

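For 3 genes the order of high-scoring and other tumour cells was opposite in the 2 libraries, and none of these differences was tested. Nppb was at 0.139 times the level of other tumour cells in control and at 1.21 times in knockdown, on 7 and 179 UMIs in high-scoring cells. Enpp2 was at 1.51 times in control and 0.689 times in knockdown, on 188 and 51 UMIs. C3 was at 0.450 times in control and 1.64 times in knockdown, on 36 and 206 UMIs, of which 1 knockdown cell held 31.6%, and without the cell with most UMIs in each group it was at 0.541 and 1.24 times.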

How the results depend on the processing

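No paired analysis was possible because each group is 1 library and the labels carry no replicate numbers. The ratio of high-scoring shares, 1.499 knockdown over control, was 1.0 by construction with the top 15% taken within each library, 1.24 without Tafa1, 1.32 without Zfpm2, 2.05 without Sdk1, 1.10 when ranked by the long-gene share and 0.813, reversed, when ranked by Malat1. The 1885 higher genes became 2867 with the mean of each cell's own CPM, 881 after centring, 1222 at 20 CPM and 10 at the same long-gene share. The 30 lower genes became 64 for the top 10%, 15 for the top 25%, 146 with a stricter gate and 19 with scores from thinned cells. They became 84 with the cell mean, 52 with equal depth bins, 372 after centring, 16 at 20 CPM and 104 at 1 CPM. The stricter gate asked for at least 10 UMIs of Hmga2 plus Rhox5 and no UMI of the C1q genes or Ptprc. It left 1761 tumour cells, of which 265 were high-scoring. Between libraries, 333 higher and 295 lower genes became 1163 and 913 with the stricter gate, 640 and 845 with equal depth bins, 127 and 129 at 20 CPM and 1008 and 610 at 1 CPM. The smaller numbers of cells or genes tested are part of the stricter settings; the cause of the other changes was not tested. The high-scoring cells of the thinned score shared 1105 of 1528 with those described.

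Among gene ratios and list medians that lay past the calling threshold of 1.5 times as reported, 33 turned direction. At the same long-gene share these were, as log2 ratios of high-scoring over other cells, the medians of the relatives of the score genes (-0.032, control), nuclear RNA (-0.14 and -0.026), the TGF-beta and BMP pathway (-0.092, control), WNT and Notch (-0.035, knockdown) and growth factors (-0.0072, control), and in control Robo2 (-0.036), Cdc20 (0.12), Mrpl12 (0.028), Galnt18 (-0.15), Enpp2 (-0.94), Tgfb3 (-0.27), Malat1 (-0.091) and Col5a2 (-0.42), in knockdown C3 (-0.12), Runx1t1 (-0.33), Nlrc5 (-0.18), Slc7a11 (-0.034) and Mitf (-0.21), and in both Nav2 (-0.23 and -0.11) and Tcf4 (-0.069 and -0.082). Elsewhere, C3 turned in control to 0.26 (top 15% per library), 1.39 (stricter gate), 0.55 (thinned score) and 0.46 (without Zfpm2), in knockdown to -0.036 (without Zfpm2) and -0.092 (without doublets), and between libraries to -0.043 (without Zfpm2). Nppb turned to 0.0022 in control with the stricter gate, Timp3 to 1.084 in control and Hist1h2ap to 0.071 between libraries with equal depth bins. Of the other values of single genes and list medians under the alternatives, 7458 stayed within the counting interval, or within 0.1 for a median, and 2960 moved beyond it without turning. For 8 list medians no value could be given after free RNA was subtracted. The control value of Nppb rests on 7 UMIs in high-scoring cells.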

Other observations

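Genes of noncoding types were called higher in high-scoring cells in larger shares than protein-coding genes. Of 9495 protein-coding genes 1777 (18.7%) were higher in both libraries, of 102 lincRNA genes 32 (31.4%), of 103 antisense genes 40 (38.8%) and of 91 processed transcripts 35 (38.5%). Of 13 bidirectional promoter lncRNA genes 0 were. The span went with the calls at each level of abundance. Of genes of at least 100 kb, 247 of 374 (66.0%) between 5 and 20 CPM, 572 of 744 (76.9%) between 20 and 100 CPM and 170 of 212 (80.2%) from 100 CPM were higher. Among genes under 20 kb, 61 of 1669 (3.65%), 13 of 1633 (0.796%) and 5 of 805 (0.621%) were higher at the same levels. H19 was at 1.30 and 1.43 times in high-scoring cells, at a span of 2.62 kb.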
